A study of Mus musculus with 4 samples.

Results

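Histone H3 trimethylated at lysine 4 (H3K4me3), a mark of promoters that are active or ready for transcription, was examined at 9 genes of the epicardium and of retinoic acid supply in adult mouse heart. The genes are Wt1, the retinaldehyde dehydrogenases Aldh1a1, Aldh1a2 and Aldh1a3, the uroplakins Upk1b and Upk3b, Msln, and the retinoic acid binding proteins Crabp1 and Crabp2. They were chosen by name, as 9 of 21670 protein-coding genes on chromosomes 1 to 19 and X. The tissue was heart of female B6CASTF1/J adults, a first-generation cross, at an age of 2 months, and no treatment, genotype or second tissue was compared. Chromatin of frozen tissue, with fragments of 200 to 600 bp, gave 4 libraries, 2 technical replicates of each of 2 pools named G and H, and each pool held 2 heart biosamples. The labels number pool G as biological replicate 1 and pool H as biological replicate 2. All libraries name the same donor record, so the labels leave unclear whether the pools came from separate animals. The values are 4 lists of peaks on the mouse build mm10: a list of each pool, and 2 lists made from both pools, called replicated and pseudoreplicated.

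The epicardium is the mesothelial sheet that covers the heart. In the embryo its cells carry the zinc finger transcription factor Wt1 and make retinoic acid, and some of them enter the heart wall and become fibroblasts and mural cells of vessels. Retinoic acid is made from vitamin A by oxidation of retinol to retinal and of retinal to the acid, and the last step is the work of the Aldh1a enzymes, of which Aldh1a2 is the main enzyme of the embryonic heart. Crabp1 and Crabp2 hold the acid in the cytoplasm, and receptors in the nucleus switch target genes when they bind it. The mark was measured in whole heart, so a low or missing peak in these data cannot separate few cells with the mark from little mark per cell.

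A gene was counted as occupied where a peak touched the stretch reaching 1000 bp to each side of a protein-coding start. Height is the signal value the authors deposited for the highest such peak, read as a fold enrichment over control, and width is that of the widest promoter domain, peaks no more than 1000 bp apart being joined. Both were ranked among all occupied genes of the same list. The replicated list, the main one here, held 24996 peaks, and 24037 of them, 96.2%, stood in the pseudoreplicated list with the same ends and the same signal value, so these 2 lists are not independent. Heights ran higher in pool G, where the median occupied gene had a fold enrichment of 18.2, than in pool H, where it was 12.9. The defining genes of heart tissue were marked in the replicated list, where 63.0% of all protein-coding genes had a peak. Peaks stood at 7 of 7 cardiomyocyte, 6 of 6 endothelial and 6 of 6 fibroblast genes. Of 9 epicardial and mesothelial marker genes, 3 had a peak, namely Wt1, Tbx18 and Bnc1. This count is not separate from those below. Wt1, Upk1b, Upk3b and Msln are among the 9 genes of this report, and the other markers recur among the 16 other epicardial and mesothelial genes. Tcf21, a fibroblast gene here, recurs there too.

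Of the 9 genes, 3 were occupied in the replicated list (33.3%), beside 63.0% of all protein-coding genes. They were Wt1, Aldh1a2 and Aldh1a3, and the same 3 were occupied in each of the other lists. Aldh1a1 was the only gene of the 9 whose state differed between lists: it had a peak in the pool G list and in the pseudoreplicated list, and none in the pool H list or the replicated list. Upk1b, Upk3b, Msln, Crabp1 and Crabp2 had no promoter peak in any of the 4 lists. The counts were therefore 4 of 9 in the pool G list beside 63.4% of all genes, 4 of 9 in the pseudoreplicated list beside 63.4%, and 3 of 9 in the pool H list beside 61.3%. In the replicated list the median height of the 3 occupied genes was 6.72, beside 15.3 over all 13657 occupied genes, and their median width was 1373 bp, beside 1799 bp.

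**Figure D1:**
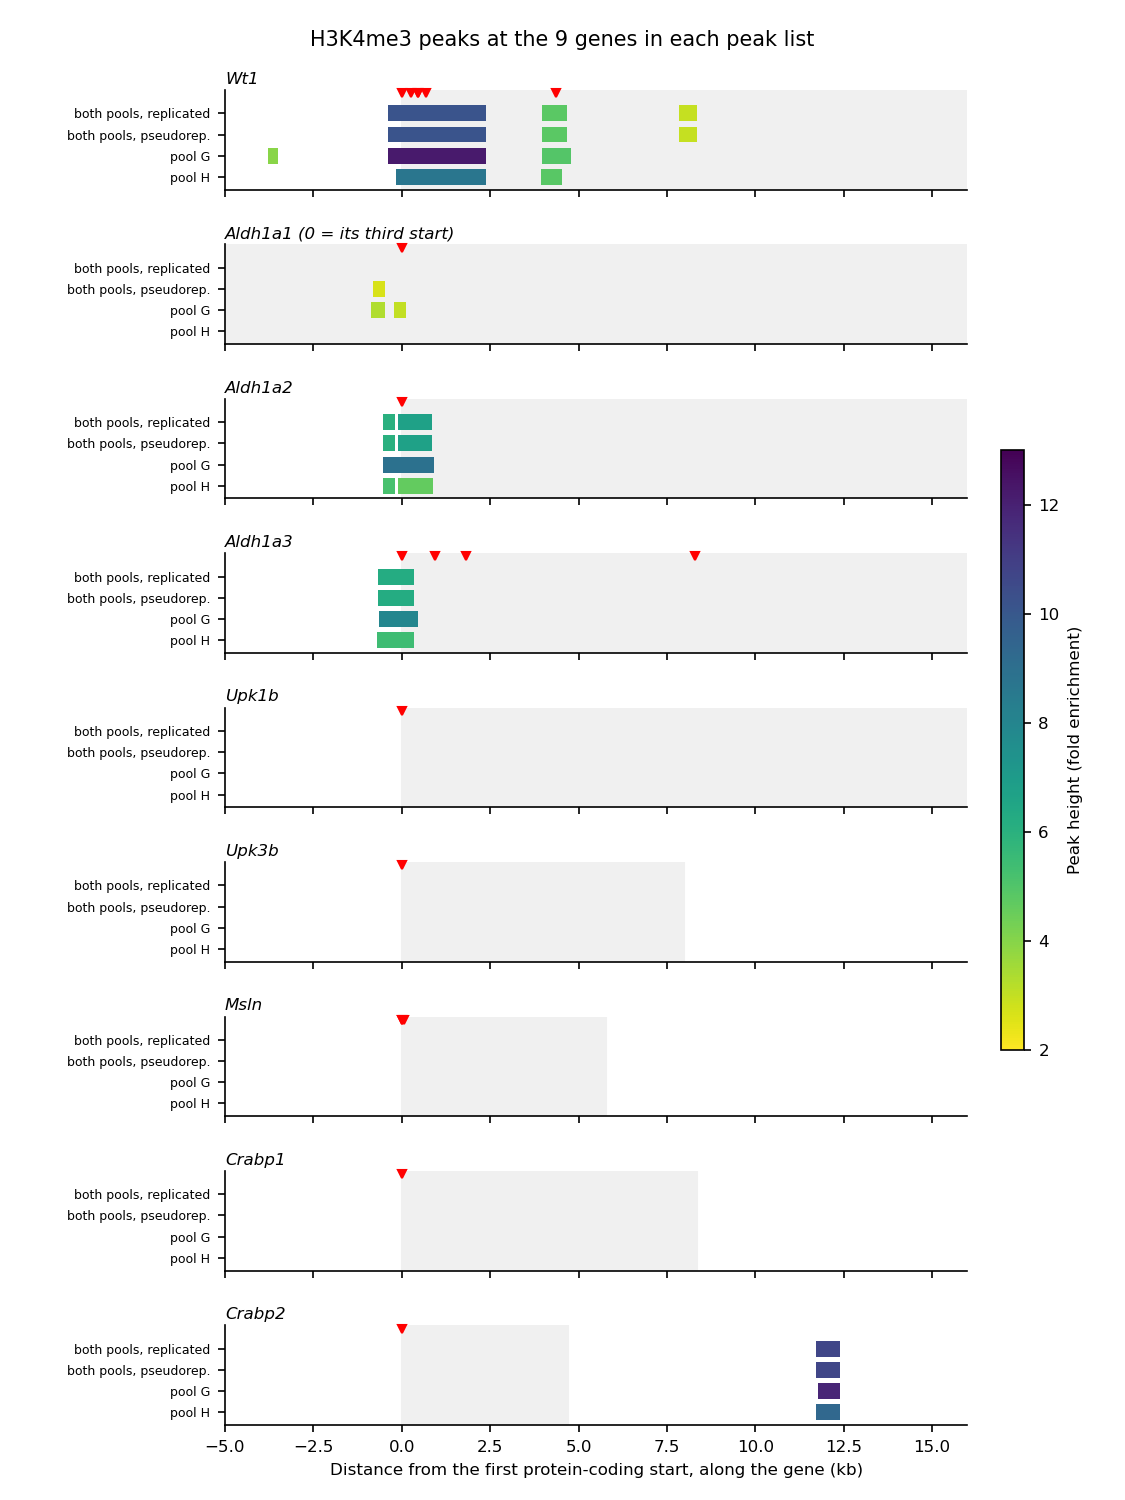
Peaks at the 9 genes in each of the 4 lists, drawn by distance in kb from the first protein-coding start along the direction of transcription (for Aldh1a1 from the third of its starts); bars are peaks coloured by fold enrichment, red triangles are starts and the grey field is the gene. Wt1, Aldh1a2 and Aldh1a3 carry a peak at the first start in every list, Aldh1a1 has small bars in the pool G and pseudoreplicated lists alone, and Crabp2 has a bar far past the gene's end in all 4.

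Wt1, which encodes the transcription factor that defines epicardial cells and is also made in kidney podocytes and gonads, lies at chr2:105126529-105173616 on the plus strand and has 6 annotated protein-coding starts. Its highest promoter peak had a fold enrichment of 12.3 in pool G, 8.66 in pool H and 10.1 in both lists made from the 2 pools, a mean of 10.5 ± 2.55 over the pools (SD, n = 2). The domain spanned 2784 bp (pool G), 2554 bp (pool H) and 2771 bp in the replicated list, or 2669 ± 163 bp (SD, n = 2). Wt1 was thus lower than most marked promoters and wider than most: in the replicated list its height lay at percentile 23.5 and its width at percentile 81.4. The pools gave the same picture, with percentile 24.1 for height and 78.8 for width in pool G, and 22.0 and 81.4 in pool H.

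The wide Wt1 domain began 384 bp before the first start and ended 2386 bp after it, at chr2:105126145-105128915 in the replicated list. It covered 5 of the 6 starts, which lie within 681 bp of each other, and its summit stood 778 bp after the first start, in a Wt1 exon. In the pools it stood 772 bp (pool G) and 794 bp (pool H) after that start, nearly the same place. The same stretch holds the starts of Wt1os, the antisense transcript of Wt1, which lie 19 and 126 bp from the first Wt1 start, and the peaks carry no strand, so the mark of the 2 transcripts cannot be told apart. Of the domain, 86.1% lay downstream of the first start, beside a median of 69.1% and a middle range of 59.3 to 79.2% over 9169 genes alone in a domain that covers their first start. The downstream share was 85.8% in pool G and 93.3% in pool H, at percentiles 86.3 and 92.8 of their lists. Measured from its first start, the domain thus lay further into the gene than that of most genes. The summit stood 97 bp after the nearest of the covered starts in the replicated list, and 91 and 113 bp after it in pools G and H. From that start 61.6% of the domain lay downstream, and 61.3% and 66.6% in the pools. That start was picked for its nearness to the summit, so the short distance follows in part from the choice. Shares from a start picked in this way were not computed for other genes, so these are not comparable with the median of 69.1%.

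The sixth Wt1 start, 4354 bp into the gene, had a peak of its own in every list. It was 712 bp wide with a fold enrichment of 4.83 in the replicated list, 812 bp and 4.93 in pool G, and 596 bp and 4.86 in pool H. Unlike the main peak, this one had nearly the same height in the pools. The window of that start was poor in CpG, with a ratio of observed to predicted CpG of 0.349, against 0.735 at the richest of the upstream starts. An intronic peak of 496 bp, 7844 to 8339 bp into the gene, had a fold enrichment of 2.98 and a -log10 q of 2.62, and appeared in the lists made from both pools and in neither pool's own list. A peak of 301 bp that ended 3497 bp before the first start, inside the Wt1os transcript, appeared in the pool G list alone with a fold enrichment of 3.98. The peaks away from the main starts were all lower than the main peak, and these last ones were not found in every list.

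Aldh1a2, the retinaldehyde dehydrogenase on which the embryonic heart depends for retinoic acid, lies at chr9:71215789-71296243 on the plus strand with 1 annotated start. Its height was 8.89 in pool G, 5.21 in pool H and 6.72 in the replicated list, a mean of 7.05 ± 2.60 over the pools (SD, n = 2). The domain spanned 1461 bp (pool G), 1421 bp (pool H) and 1373 bp in the replicated list, or 1441 ± 28.3 bp (SD, n = 2). Aldh1a2 was lower and narrower than most marked promoters: percentile 12.0 for height and 27.1 for width in the replicated list, 14.0 and 27.5 in pool G, and 7.82 and 34.9 in pool H. Width was nearly equal in the pools while height was not.

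The Aldh1a2 domain was divided just before the start in the pool H list and in both lists made from the 2 pools, and not in the pool G list. The 2 lists made from both pools hold the same peaks here, so they count as 1 call. In the replicated list a peak of 319 bp with a fold enrichment of 6.03 had its summit 336 bp upstream, and a peak of 970 bp with a fold enrichment of 6.72 had its summit 166 bp downstream, in an Aldh1a2 exon. The 84 bp between them ran from 201 to 118 bp before the start, at chr9:71215588-71215671. In pool H the gap was 85 bp, from 184 to 100 bp before the start, and there the upstream peak was the higher one, at 5.21 against 4.63. In pool G a peak of 1461 bp spanned the place with no gap and had its summit 168 bp after the start. The gap lies in one of the most CpG-dense promoters of the genome: the 300 bases of the RefSeq promoter window, 250 before to 50 after the start, held 50 CpG, at percentile 99.0 of 21045 RefSeq promoters, whose median was 13. The 250 bases before the start are shown because the gap falls inside them, with each CpG in capitals, from GRCm38.p6 (mm10), plus strand, chr9:71215539-71215788.
Aldh1a2: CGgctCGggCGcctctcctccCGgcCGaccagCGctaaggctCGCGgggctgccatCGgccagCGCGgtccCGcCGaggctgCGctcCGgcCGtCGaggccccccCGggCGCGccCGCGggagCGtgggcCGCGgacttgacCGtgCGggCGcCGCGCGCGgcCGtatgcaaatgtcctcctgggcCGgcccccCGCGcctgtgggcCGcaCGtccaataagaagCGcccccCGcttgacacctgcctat
Of the 40 CpG in these bases, 17 lay in the gap of the replicated list, 8 before it and 15 after it. The gap takes up 84 of the 250 bases, and whether it is linked to CpG was not tested. The letters CCAAT, searched on both strands, occurred once here, 36 bp before the start, and 38.5% of the RefSeq promoters hold them.

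Aldh1a3, the isoform best known from the eye, nose and glands, lies at chr7:66390890-66427517 on the minus strand and has 4 protein-coding starts. Its height was 7.95 in pool G, 5.40 in pool H and 6.25 in the replicated list, a mean of 6.68 ± 1.81 over the pools (SD, n = 2). The domain spanned 1117 bp (pool G), 1048 bp (pool H) and 1015 bp in the replicated list, or 1083 ± 48.8 bp (SD, n = 2). It was among the lower and narrower marked promoters in all lists, at percentiles 10.6 for height and 12.4 for width in the replicated list, 11.9 and 13.6 in pool G, and 8.33 and 16.2 in pool H.

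The Aldh1a3 peak lay mostly before the gene. In the replicated list it ran from 671 bp upstream to 343 bp downstream of the first start, at chr7:66427174-66428188, with 33.8% of its length downstream. That share was at percentile 2.06 of the 9169 genes compared, and it was 41.0% in pool G and 32.1% in pool H, at percentiles 4.11 and 1.73. The summit also stood upstream, by 118 bp in the replicated list, 150 bp (pool G) and 256 bp (pool H). The starts 1816 and 8282 bp into the gene had no peak within 1000 bp, so the mark was found at the 5' end only. Measured from the first start, downstream shares of Aldh1a2, at 62.1% in the replicated list, 63.0% in pool G and 63.0% in pool H, lay between those of Wt1 and Aldh1a3.

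Aldh1a1, the broadly made retinaldehyde dehydrogenase of liver, eye and many epithelia, lies at chr19:20492715-20643465 on the plus strand. It has 2 starts at its 5' end and the third 109246 bp into the gene. The 5' starts had no peak in any list, and the nearest peak of the replicated list, that of Anxa1, was 101790 bp away. The only promoter peaks of the gene were at the third start, in the pool G and pseudoreplicated lists, and they were small. In pool G, a peak of 398 bp with a fold enrichment of 3.31 and a -log10 q of 4.76 stood before that start, and a peak of 346 bp with 3.03 and a -log10 q of 2.93 covered it. In the pseudoreplicated list a peak of 339 bp had a fold enrichment of 2.64 and a -log10 q of 1.62, and ended 488 bp before the start. These heights were at percentile 0.710 in pool G and 0.484 in the pseudoreplicated list, the bottom of the marked promoters. Of all genes, 492 were occupied in the pool G list and not in the pool H list, with a median height of 4.17, and 32 in the pool H list and not in the pool G list. The bases before the third start are shown because pool G's second peak, chr19:20601744-20602089, overlies most of them, with CpG in capitals, from GRCm38.p6, plus strand, chr19:20601718-20601960.
Aldh1a1: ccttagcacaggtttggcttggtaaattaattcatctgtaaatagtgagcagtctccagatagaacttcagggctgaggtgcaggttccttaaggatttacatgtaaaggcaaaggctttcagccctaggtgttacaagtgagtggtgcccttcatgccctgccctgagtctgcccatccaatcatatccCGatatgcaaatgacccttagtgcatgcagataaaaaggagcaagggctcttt
These 243 bases hold 1 CpG, and so does the 300-base window, at percentile 7.77 of the RefSeq promoters, at the far end from Aldh1a2. The letters CCAAT, found once at Aldh1a2, occurred 2 times in this window on either strand. They began 72 and 2 bp before the RefSeq start, and 38.5% of RefSeq promoters hold them at least once.

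The order of the 3 genes with a mark in every list was not fixed below Wt1. Wt1 was the highest in each of the 4 lists. Aldh1a2 was above Aldh1a3 in pool G, at 8.89 against 7.95, and below it in pool H, at 5.21 against 5.40, so these 2 do not differ beyond the spread between pools. Within each pool Wt1 was above Aldh1a2, at 12.3 against 8.89 in pool G and 8.66 against 5.21 in pool H. Across pools the lowest Wt1 value, that of pool H, was just under the highest Aldh1a2 value, that of pool G. Heights in the pool G list ran higher in general, so values of different lists are not directly comparable. All 3 were higher in pool G than in pool H, by 0.50 for Wt1, 0.77 for Aldh1a2 and 0.56 for Aldh1a3 on the log2 scale. That is how most promoters behaved: over 13245 genes occupied in both pools the median difference was 0.51, the range from the 5th to the 95th percentile was 0.05 to 0.95, and 96.1% were above 0.

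**Figure D2:**
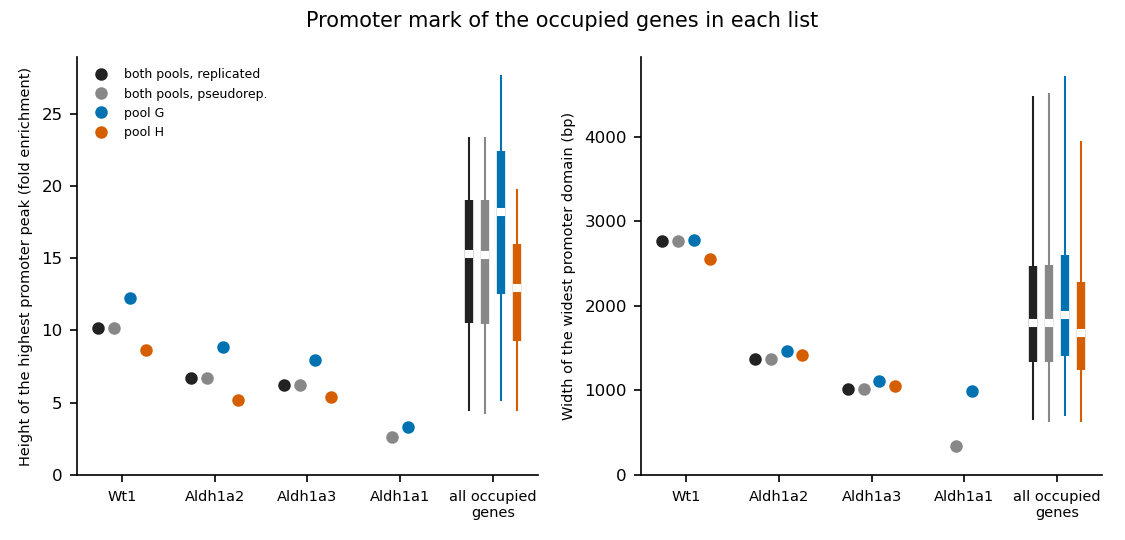
Height of the highest promoter peak (left, fold enrichment) and width of the widest promoter domain (right, bp) of the occupied genes in each list; for all occupied genes, thick lines span the middle 50%, thin lines the 5th to 95th percentile and white squares the median. Wt1 is below the median in height and above it in width in every list, while Aldh1a2, Aldh1a3 and Aldh1a1 are below both.

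The cytoplasmic binding proteins had no promoter peak. Crabp1, which lies at chr9:54764748-54773110 on the plus strand and binds retinoic acid tightly in the cytoplasm, had its nearest peak of the replicated list 29551 bp away, at the promoter of Wdr61. Crabp2, which carries retinoic acid to the receptors, lies at chr3:87948666-87953376 on the plus strand, and its nearest peak was 11717 bp from its start. Among the 8013 genes with no promoter peak in that list, whose median distance to a peak was 73939 bp, these distances were at percentiles 30.6 and 15.5. Both genes were therefore nearer to a peak than most unmarked genes. The peak nearest to Crabp2, chr3:87960383-87961051, stood past the gene, 7007 bp beyond its end and 10042 bp before the start of Nes, in no annotated gene. It was 669 bp wide with a fold enrichment of 10.7 in the replicated list, 622 bp and 11.9 in pool G, and 671 bp and 9.31 in pool H. This intergenic peak was found in all 4 lists and was higher than the main Wt1 peak in pool H and lower than it in pool G.

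The Crabp1 promoter was the most CpG-rich of the unmarked ones. The 250 bases before its start are shown for comparison with Aldh1a2, with CpG in capitals, from GRCm38.p6, plus strand, chr9:54764498-54764747.
Crabp1: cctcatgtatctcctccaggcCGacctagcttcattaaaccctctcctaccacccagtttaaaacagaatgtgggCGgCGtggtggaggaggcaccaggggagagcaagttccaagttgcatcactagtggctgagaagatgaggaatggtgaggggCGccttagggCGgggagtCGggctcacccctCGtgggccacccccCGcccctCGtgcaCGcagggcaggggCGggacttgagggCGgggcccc
They hold 12 CpG, and the 300-base window 17, at percentile 58.1 of the RefSeq promoters. The letters GGGCGG, those of the GC box, occurred 5 times on either strand, at 178, 86, 49, 25 and 12 bp before the start, and 46.7% of RefSeq promoters hold them at least once. The letters are a match of sequence and not a measured site.

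The cell-surface genes of mesothelium had no peak in any list. Upk1b, a tetraspanin of the uroplakin plaques, lies at chr16:38773184-38800328 on the minus strand, and its nearest peak of the replicated list was 55979 bp away. Upk3b, a uroplakin made by mesothelium, lies at chr5:136038496-136046487 on the plus strand, 42806 bp from a peak at the Dtx2 promoter. Msln, the mesothelin anchored to the surface of mesothelial cells, lies at chr17:25748613-25754378 on the minus strand, 19348 bp from a peak at the Narfl promoter. These distances were at percentiles 44.1, 38.2 and 22.6 of the unmarked genes, so none of the 3 was unusually far from a peak. The 250 bases before the Upk3b start show what a CpG-poor promoter of this group looks like, with CpG in capitals, from GRCm38.p6, plus strand, chr5:136038246-136038495.
Upk3b: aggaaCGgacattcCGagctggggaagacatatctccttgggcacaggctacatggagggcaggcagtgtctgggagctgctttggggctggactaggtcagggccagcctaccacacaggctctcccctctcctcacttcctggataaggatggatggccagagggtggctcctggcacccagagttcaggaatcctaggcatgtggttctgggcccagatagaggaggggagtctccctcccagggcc
They hold 2 CpG, as does the 300-base window, at percentile 14.3. The letters AGGTCA, those of a nuclear receptor site, occurred once, 155 bp before the start, and 14.6% of RefSeq promoters hold them on either strand. Of the 9 genes, 4 matched the RefSeq promoter table, namely Aldh1a1, Aldh1a2, Upk3b and Crabp1. Wt1, Aldh1a3, Upk1b, Msln and Crabp2 did not match. The letters TATAAA, of the TATA box, and GCGGGGGCG, bound by Wt1 and Egr proteins, occurred in none of the 4 genes' windows, and 12.7% and 3.91% of RefSeq promoters hold them. The GCGGGGGCG and GGGCGG letters can overlap by part of their length, so these shares are not independent.

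The 9 genes differed in the CpG content of their promoters. The CpG ratio sets the CpG found in the 2001 bp around a start over the number its C and G content predicts. A gene was called high-CpG where this ratio reached 0.6 at a start with a GC share of 0.5 or more. Wt1, with a ratio of 0.735, and Aldh1a2, with 0.822, were high-CpG, and both were occupied, beside 96.7% of the 7294 high-CpG genes in the replicated list, 96.8% in the pool G and the pseudoreplicated lists and 95.4% in the pool H list. Of the other 7 genes, Aldh1a3 alone was occupied in the replicated list, beside 46.0% of the 14376 low-CpG genes. With Aldh1a1 the count was 2 of 7 in the pool G and the pseudoreplicated lists, beside 46.4% in each, and it was 1 of 7 in the pool H list beside 43.9%. Aldh1a3 had the highest ratio of those 7, at 0.569, and the ratios of Crabp1, Crabp2 and Upk1b were 0.555, 0.465 and 0.317. Upk3b, Aldh1a1 and Msln had the lowest, at 0.210, 0.187 and 0.171. Crabp1 and Crabp2 are the genes whose state is less usual for their sequence: 91.0% of the 2912 genes with a ratio of 0.5 to 0.6 were occupied, and 79.6% of the 2079 genes with 0.4 to 0.5. For Upk1b the share in its range of 0.3 to 0.4 was 45.0%, for Upk3b in 0.2 to 0.3 it was 18.4%, and for Aldh1a1 and Msln in 0.1 to 0.2 it was 4.85%.

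**Figure D3:**
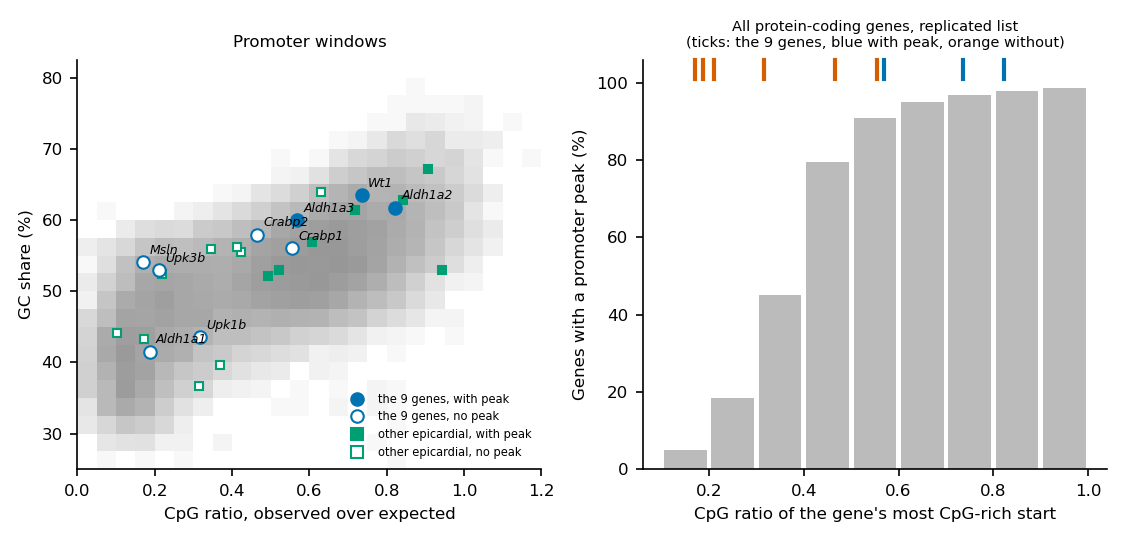
Left, CpG ratio and GC share (%) of the richest start window of the 9 genes (circles) and of 16 other epicardial and mesothelial genes (squares), filled where a peak was present in the replicated list, over the density of all genes in grey; right, the share of all genes with a promoter peak by CpG ratio, with a tick for each of the 9 genes. The 3 filled circles have the 3 highest ratios of the 9, and Crabp1, open, lies close to Aldh1a3.

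The other genes of the retinoic acid pathway had peaks of usual height over wider joined domains. Of 42 other genes of uptake, metabolism, receptors, cofactors and targets, 31 were occupied in the replicated list (73.8%) and in pool G, and 29 in pool H, beside 63.0%, 63.4% and 61.3% of all genes. The median height of those occupied was 15.1 and the median width 3097 bp, beside 15.3 and 1799 bp over all occupied genes. Both widths join peaks no more than 1000 bp apart, and widths of single peaks were not compared. Joining mattered for some genes: Meis2 spanned 9057 bp joined and 4161 bp in its widest single peak, and Cyp26b1 7041 and 2466 bp. For others, such as Fabp5 at 3097 bp, the 2 measures were equal. Of the 42 genes, 20 were high-CpG, with 19 occupied beside 96.7% of all high-CpG genes, and 22 low-CpG, with 12 occupied beside 46.0%.

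Uptake and storage was marked in part, with 5 of 8 genes occupied, 4 of them in pool H, beside the same 63.0% and 61.3%. Fabp5, a fatty acid binding protein that can carry retinoic acid, was the highest at 16.7 and the widest at 3097 bp, and Dgat1, an enzyme that esterifies retinol, had 12.7. Rbp4, the retinol carrier of plasma, was marked faintly, at 3.65 over 289 bp, and not in pool H. Rbp2, a retinol binding protein of the intestine, and Stra6, the receptor for the plasma carrier, had no peak. Of the 10 genes that oxidise or reduce retinol and retinal, 6 were occupied in the replicated list and in each pool. Rdh14 was the highest at 18.9, followed by Dhrs3 and Adh5, both at 17.3, but in pool G Adh5, at 20.6, was above Rdh14, at 16.5. Dhrs3, which returns retinal to retinol, was the widest at 6619 bp in the replicated list, and in pool H it was 3501 bp, nearly the 3496 bp of Rdh10. Dhrs9, Adh4, Adh7 and Aldh8a1 had no peak. Rdh10, the retinol dehydrogenase of the embryo, had 15.3 and shared its domain with Rpl7. Of the 6 occupied genes of these steps, 5 had a higher peak than Aldh1a2 in the replicated list, and Adh1, at 6.44, had a lower one. In pool H Adh1, at 6.62, was higher than Aldh1a2, at 5.21.

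The degrading enzymes differed among themselves. Cyp26b1 had a height of 10.1 over a domain of 7041 bp, with no peak within 1000 bp of the start of its longest transcript. Cyp26a1 had 3.55 over 530 bp and no peak in pool H, and Cyp26c1 had none. All 6 nuclear receptors of the pathway were occupied in every list, beside 63.0% of all genes in the replicated list, with a median height of 15.1 and a median width of 4629 bp. With the start of the longest transcript alone, Rara and Rarb had no peak, which left 4 of 6. Rxrb was the highest at 20.3, in a domain shared with Slc39a7, and Rxra had 20.2. Rarg was the widest at 6126 bp in the replicated list. Its lead was smaller in the pools, at 4994 bp against 4991 bp for Rara in pool G, and 4924 against 4770 bp in pool H. All 6 corepressors and coactivators, each high-CpG, were occupied too, beside 96.7% of high-CpG genes, with Ncoa2 at 23.8 and Ncoa1 at 22.1 the highest and Nrip1, at 3643 bp, the widest. With every protein-coding start counted, no receptor lacked a peak.

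Of 12 known targets of retinoic acid, 9 were occupied, and 8 in pool H, beside 63.0% and 61.3% of all genes. Tgm2, a transglutaminase, was the highest at 21.4, with Dhrs3, counted here again, at 17.3. Meis1, a homeobox factor of the embryonic and postnatal heart, had the widest domain at 11349 bp. Hoxb1, Stra8 and Cdx1, genes of the embryonic hindbrain, the germ line and the gut, had no peak, and Cdx1 was the high-CpG gene of the 42 with no peak. The targets list shares Rarb, Cyp26a1 and Dhrs3 with the lists of receptors and enzymes.

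The 2 gene families of the 9 were also read in full. Of 14 other aldehyde dehydrogenases, 12 were occupied in the replicated list (85.7%) and 10 in pool H, beside 63.0% and 61.3% of all genes. Aldh3a2 was the highest at 23.2, Aldh7a1 followed at 20.4 in a domain shared with Phax, and Aldh2, the mitochondrial enzyme of ethanol metabolism, was the widest at 3032 bp. In pool H Aldh2 spanned 1819 bp and Aldh6a1, at 2323 bp, was wider. There Aldh6a1 was also higher than Aldh7a1, at 18.4 against 17.1. Aldh1a7, a close relative of Aldh1a1, and Aldh3a1 had no peak. The other 4 uroplakins, Upk1a, Upk2, Upk3a and Upk3bl, had no peak in any list. All 4 were low-CpG, and 46.0% of all low-CpG genes were occupied in the replicated list. Their CpG ratios ran from 0.145 to 0.268. Of all genes with a ratio of 0.1 to 0.2, 4.85% were occupied, and 18.4% of those with 0.2 to 0.3, so a missing peak is usual for such sequence. Of the 4 partners of Wt1, all were occupied, beside 96.7% of high-CpG genes, to which all 4 belong. Pawr at 17.1 and Wtap at 16.1 were the highest in the replicated list, in the other order in both pools, and Wtap was the widest at 2846 bp.

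Other genes of the epicardium and of mesothelium were marked in part. Of 16, 7 were occupied in the replicated list (43.8%) beside 63.0% of all genes, with 8 in each pool's list and 9 in the pseudoreplicated list. They were Bnc2 at 9.53, Tbx18 at 9.37, Tcf21 at 7.98, Sema3d at 5.82, Cdh3 at 4.71, Gata5 at 4.13 and Bnc1 at 3.87. All 7 were lower than the median occupied gene, and Tbx18, a T-box factor of the embryonic epicardium, was the widest at 2642 bp in the replicated list. In pool G Tcf21 was wider, at 5197 bp against 2741 bp, while in pool H it spanned 1075 bp. Bnc1, Bnc2, Tbx18, Tcf21 and Gata5 encode transcription factors, as Wt1 does. The keratins Krt8, Krt18 and Krt19, and Lrrn4, Gpm6a, Muc16 and Itln1 had no peak in any list. Prg4 was occupied in the pool G and pseudoreplicated lists only, and Rspo1 in the pool H and pseudoreplicated lists only. Of the 6 high-CpG genes of this group 5 were occupied, beside 96.7% of all such genes, and of the 10 low-CpG genes 2, beside 46.0%.

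**Figure D4:**
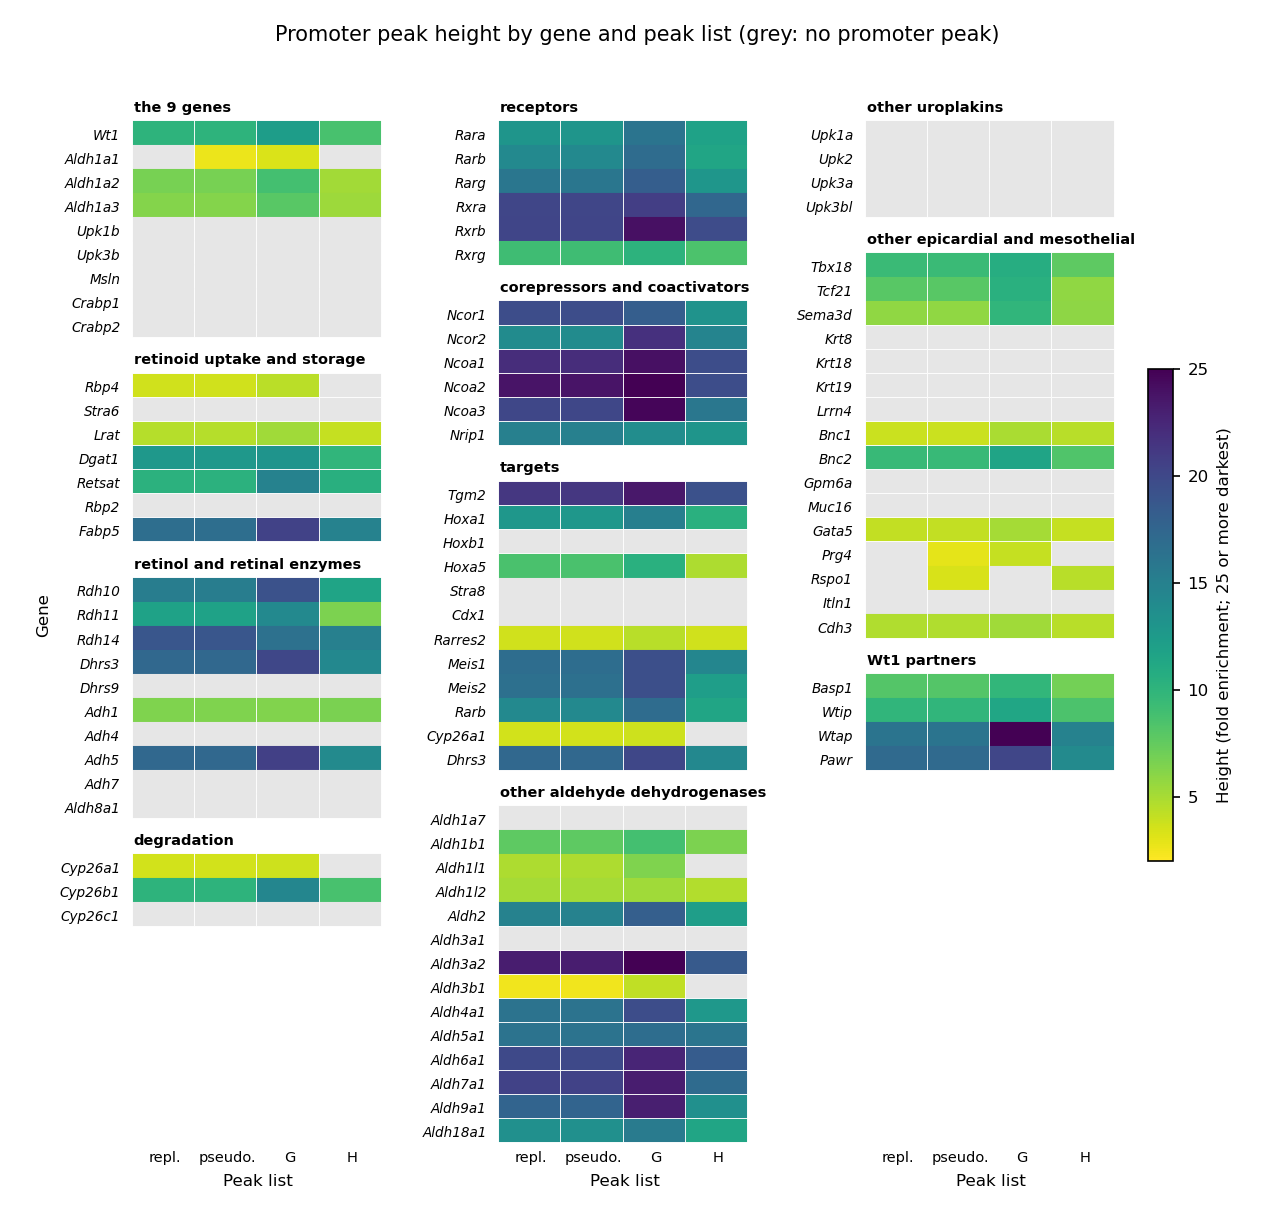
Height of the promoter peak (fold enrichment, colour) of the genes shown in the replicated, pseudoreplicated, pool G and pool H lists, by role; grey tiles mark genes with no promoter peak in that list. The receptors and cofactors have no grey tile, the uroplakins have nothing but grey, and 5 of the 9 genes are grey in every list.

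Some genes outside these lists had marks much like those of the 3 genes. Likeness was the distance over height and width in the pool G and pool H lists, on the log2 scale and in SD units, among 10532 genes alone in their domain. Nearest to Wt1 were Tppp at a distance of 0.127, Phf8 at 0.148 and Mfng at 0.171. Nearest to Aldh1a2 were Sel1l3 at 0.142, Tcf24 at 0.246 and Armcx2 at 0.264. Nearest to Aldh1a3 were Hps1 at 0.139, Fndc1 at 0.170 and Fam19a5 at 0.173. The measure uses 4 values a gene and describes the shape of the mark alone.

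Genes of other tissues that make Wt1 or uroplakins were looked at in the same lists. None of 5 bladder urothelium genes had a peak, and of the podocyte genes, Nphs1, which encodes nephrin, had none, while Podxl, also made by endothelium, had 13.9 and Synpo 11.1. Of 5 lung and airway epithelium genes, Epcam had 5.77 and Cdh1 4.71 in the replicated list, while Sftpc, Sftpb and Scgb1a1 had no peak. None of 3 hepatocyte genes and none of 4 leukocyte genes had a peak. In the replicated list 63.0% of all genes and 46.0% of low-CpG genes were occupied. The bladder urothelium, hepatocyte and leukocyte genes are all low-CpG, and Epcam and Cdh1 are the high-CpG genes of the lung and airway list. The part of any other tissue in the marks at the 9 genes was not tested.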

How the data were processed

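H3K4me3 chromatin immunoprecipitation sequencing of heart was used as 4 narrowPeak lists on mm10. Per the labels, fragments were 200 to 600 bp and a possible control is named. The aligner, peak caller and threshold are not given in the sources used here. Deposited notes trace 1 list to pool G, 1 to pool H and 2 to both. Technical replicates of a pool share 1 alignment, so no value per library exists here. The authors' deposited signal value is taken here to be a ratio to control, that is, a fold enrichment. The files do not name that column, so this is an assumption. The −log10 q of each peak is also the authors' deposited value, and q exceeded 0.05 for 667 replicated peaks. Read depth is not given in the sources used here, so no interval for depth was set.

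Starts came from GENCODE M21, and every number computed here came from peaks placed against them with Python 3.11.15, numpy 2.4.6, pandas 2.3.3 and pysam 0.24.0. The overlap minimum was 1 bp. A percentile is the share of occupied genes of a list with a lower value, ties counted at their middle. Interval code was tested on simulated data, where planted peaks were recovered and results equalled those of bedtools 2.31.1. Promoter sequences are RefSeq's, build GRCm38.p6, 250 bases before to 50 after a start, 21045 promoters of 17274 genes, and bases in annotated exons are not shown.

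The 9 genes and the lists of other genes were chosen with earlier results of these data known. The genes named were all 9, the less numerous of the marked and unmarked members of each list, its 2 highest and its widest gene, genes sharing a domain, and the 3 nearest in height and width. A few further genes were named once their values were known. No set test was made. Alternatives were the other lists, −log10 q of at least 5, the longest transcript, windows of 500 and 2000 bp, an overlap of 200 bp, gaps of 0 and 3000 bp, and CpG bounds of 0.5 and 0.7. Single values of 2 listed genes are not reported here.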

Additional observations from a re-analysis of the deposited data

How the results depend on the processing

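The 9 genes gave 3 with a promoter peak under every alternative run, except 4 in the pool G list and in the pseudoreplicated list. The other retinoid genes gave 28 (longest transcript, without Rara, Rarb and Cyp26b1) to 32 (window of 2000 bp) beside 31, and the other epicardial genes 7 to 9 beside 7. Over the same alternatives the share of all genes ran from 60.6% to 63.7%. With the CpG bound at 0.5, 4 of the 9 genes were high-CpG, Aldh1a3 and Crabp1 being added, against 2 at 0.6 and 0.7. Widths depended on joining: the Wt1 domain was 5056 bp with gaps of up to 3000 bp joined, and Aldh1a2 was 970 bp with none joined. The use of any transcript's start and of peaks with q of at most 0.05 was chosen after seeing the data and left the counts at 3, 31 and 7. No paired analysis was possible because both technical replicates of a pool share 1 alignment and no value per library exists. The 2 pools are labelled as separate biological replicates but name the same donor record, and they may share animals. Whether the spread between pools is technical or between animals cannot be told.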

Other observations

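The genes beside the 9 were looked at after the values were seen, counting protein-coding genes with a start within 50 kb of each gene. Msln lies among marked genes: 8 of its 10 neighbours had a promoter peak in the replicated list, beside 63.0% of all genes, in 5 separate domains, Haghl at a fold enrichment of 20.1 and Narfl at 16.7 among them, while its relative Mslnl had none. Crabp2 had 5 marked neighbours of 6, in 4 domains, among them Hdgf at 23.6 and Nes, which encodes the intermediate filament nestin, at 14.9 over 4607 bp. Upk3b had 2 marked neighbours of 3, Rasa4 at 19.2 and Dtx2 at 18.8, and the unmarked one was its relative Upk3bl. Upk1b had 1 of 2, B4galt4 at 16.9. Wt1 and Aldh1a2 each had 1 neighbour, Gm11060 and Aqp9, and neither was marked. Aldh1a3 had Lrrk1 at 15.4, higher than its own peak, and the unmarked Gm10974.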
